A study of Mus musculus with 22 samples.

Results

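The genes described here encode 10 receptors through which acetylcholine, serotonin, dopamine and the endocannabinoids act on neurons: the muscarinic acetylcholine receptors Chrm1, Chrm2, Chrm3 and Chrm4, the serotonin receptors Htr1a, Htr2a, Htr2c and Htr3a, the dopamine receptor Drd1 and the cannabinoid receptor Cnr1. They were chosen by name from the 23037 genes that could be matched in the deposited table, and 1 RefSeq transcript stands for each gene, the one with the most counts over all libraries. RNA of hippocampus (HPC), cortex (Cx) and cerebellum (CRBM) of wild-type (WT) and circTulp4-deficient (CD) mice had been measured by CelSeq2, a 3′ RNA-seq method that counts polyadenylated transcripts near their 3′ end. The 22 libraries came from 8 mice, 4 WT and 4 CD, and most mice gave all 3 regions. There were 3 WT and 4 CD hippocampi, 4 WT and 4 CD cortices, and 4 WT and 3 CD cerebella. The study reports fewer samples in every group than the labels give. CD mice carry a CRISPR-made AG to TC change in the splice acceptor that forms circTulp4, a circular RNA of the Tulp4 gene. They are on the C57BL/6 background and descend from 1 mosaic founder male, the change is constitutive, some circTulp4 is still made, and a poly(A)-primed library does not measure the circle. No group received a treatment, and the age and sex of the mice are not given in the sources used here. Levels are given as cpm, the usual depth-scaled unit of counts relative to the library total, with library totals adjusted by TMM, the trimmed mean of M values. In bulk tissue, fewer cells that express a receptor and less RNA per cell cannot be told apart.

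Muscarinic receptors fall into a class that couples to Gq proteins and phospholipase C (Chrm1 and Chrm3 here) and a class that couples to Gi proteins and lowers cyclic AMP (Chrm2 and Chrm4). Among the serotonin receptors, Htr1a couples to Gi, Htr2a and Htr2c to Gq, and Htr3a is no G protein-coupled receptor but a subunit of a cation channel. Drd1 raises cyclic AMP, and its mRNA is best known from the medium spiny neurons of the striatum. Cnr1 couples to Gi and sits on presynaptic terminals, where endocannabinoids released by the postsynaptic cell reduce transmitter release. Cholinergic and monoaminergic neurons have their cell bodies mostly outside the 3 dissected regions, whereas the receptors are made in the target cells.

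In GRCm38 (mm10), the genes lie on separate chromosomes apart from Chrm3, Htr1a and Drd1, which share chromosome 13. Chrm1 lies on chromosome 19 from 8664005 to 8683606 (+), Chrm2 on chromosome 6 from 36387991 to 36528638 (+), Chrm3 on chromosome 13 from 9875486 to 10361062 (-) and Chrm4 on chromosome 2 from 91922189 to 91929835 (+). Htr1a lies on chromosome 13 from 105443693 to 105448133 (+), Htr2a on chromosome 14 from 74640874 to 74706859 (+), Htr2c on chromosome X from 146962464 to 147197277 (+) and Htr3a on chromosome 9 from 48899213 to 48911152 (-). Drd1 lies on chromosome 13 from 54051183 to 54055658 (-) and Cnr1 on chromosome 4 from 33923171 to 33948831 (+). Antisense or opposite-strand transcripts overlap Chrm1 (Gm22820), Chrm2 (9330158H04Rik), Chrm3 (Gm26861) and Htr3a (Gm32335) in the GENCODE annotation, and whether the counting used strand is not stated, so reads of these pairs cannot be told apart.

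RefSeq (GRCm38.p6) gave a start site with 250 bases before it and 50 after it for 8 of the 10 genes. Chrm1 and Htr3a were not matched. The windows of Cnr1, Chrm3 and Htr1a are shown because these genes stand for 3 regional patterns: highest in the cerebellum, near absent from the cerebellum, and highest in the hippocampus. Each was searched on both strands for GGGCGG (the GC box), TATAAA, TGACGTCA (the cyclic AMP response element) and CAGGTG (an E-box), which do not overlap one another as written, and matches are in capitals, as CCGCCC where the GC box lies on the other strand. Cnr1 has 3 windows, and the one shown, at chr4:33924014-33924313 (+), holds 5 GC boxes and has a GC content of 76.3%. Its other windows hold none of the 4 motifs (GC content, 69% and 46.33%). The Chrm3 window at chr13:10360754-10361053 (-) holds none of the 4 motifs (GC content, 57.3%), and the Htr1a window at chr13:105443443-105443742 (+) holds 1 GC box (GC content, 52.3%).
Cnr1: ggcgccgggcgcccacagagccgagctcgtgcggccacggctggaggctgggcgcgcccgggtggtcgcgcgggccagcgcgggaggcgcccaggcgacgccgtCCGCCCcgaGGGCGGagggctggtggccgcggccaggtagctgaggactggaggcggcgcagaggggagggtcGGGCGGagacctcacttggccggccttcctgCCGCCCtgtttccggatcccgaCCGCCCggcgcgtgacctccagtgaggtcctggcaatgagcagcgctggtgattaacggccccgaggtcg
Chrm3: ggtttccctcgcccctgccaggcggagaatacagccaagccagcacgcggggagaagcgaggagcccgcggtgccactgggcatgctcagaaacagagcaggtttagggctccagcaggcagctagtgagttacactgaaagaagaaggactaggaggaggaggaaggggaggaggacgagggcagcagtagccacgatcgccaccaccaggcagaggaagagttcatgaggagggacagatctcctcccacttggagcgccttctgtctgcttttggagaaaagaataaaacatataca
Htr1a: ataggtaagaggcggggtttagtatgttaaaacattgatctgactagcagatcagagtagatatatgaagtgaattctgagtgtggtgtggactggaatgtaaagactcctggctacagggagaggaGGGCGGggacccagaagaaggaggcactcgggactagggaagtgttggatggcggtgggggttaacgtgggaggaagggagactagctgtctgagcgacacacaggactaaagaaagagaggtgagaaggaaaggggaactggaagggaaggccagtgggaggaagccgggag
Of all 32851 RefSeq windows of this length, 35.66% hold GGGCGG, 13.62% TATAAA, 1.79% TGACGTCA and 20.21% CAGGTG, and the median GC content is 52.67%. Matches of these letters describe the windows only.

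The libraries held 2760846 to 8858937 counts with 1 transcript per gene, and the dissections matched their labels. Summed levels of 12 hippocampus marker genes were 2411 to 3177 cpm in the hippocampi and 348 to 521 cpm in the other regions, those of 12 cortex markers 1778 to 1980 cpm in the cortices and at most 575 cpm elsewhere, and those of 13 cerebellum markers 8460 to 9068 cpm in the cerebella and at most 472 cpm elsewhere. The cerebella had also the highest sums of the thalamus list (879 to 1356 cpm against 68.4 to 159 cpm), of which Calb2, a calcium-binding protein also on the GABA interneuron list, made 818 to 1291 cpm, while Slc17a6 on the same list was lower in the cerebella (0.37 to 3.99 cpm) than in the other regions (8.59 to 51.6 cpm). No library repeated another within counting error. As a check of the genotype labels, counts of Tulp4 transcript NM_054040.3 in excess of NM_001103181.1, which differ in their first exon, were 2.71 to 3.69 cpm in the WT hippocampi and 0.423 to 0.573 cpm in 3 CD hippocampi. The library labelled CD hippocampus of mouse m118 had 3.97 cpm (16 counts), at the level of WT. Genotype results in the hippocampus are therefore given with and without it. In the cortices the excess was 1.45 to 6.02 cpm in WT and 0.141 to 1.29 cpm in CD libraries. In the cerebella it was 3.12 to 13.6 cpm in WT and 0.599 to 2.61 cpm in CD libraries. The genotypes did not overlap in these regions but came close, and the lowest WT cortex had 4 counts. The study found no genotype difference in linear Tulp4 in the brain, and the link of this excess to genotype rests on these libraries alone. The cortex and cerebellum labelled m118 had 0.896 and 1.55 cpm, below every WT library of their region.

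**Figure D1:**
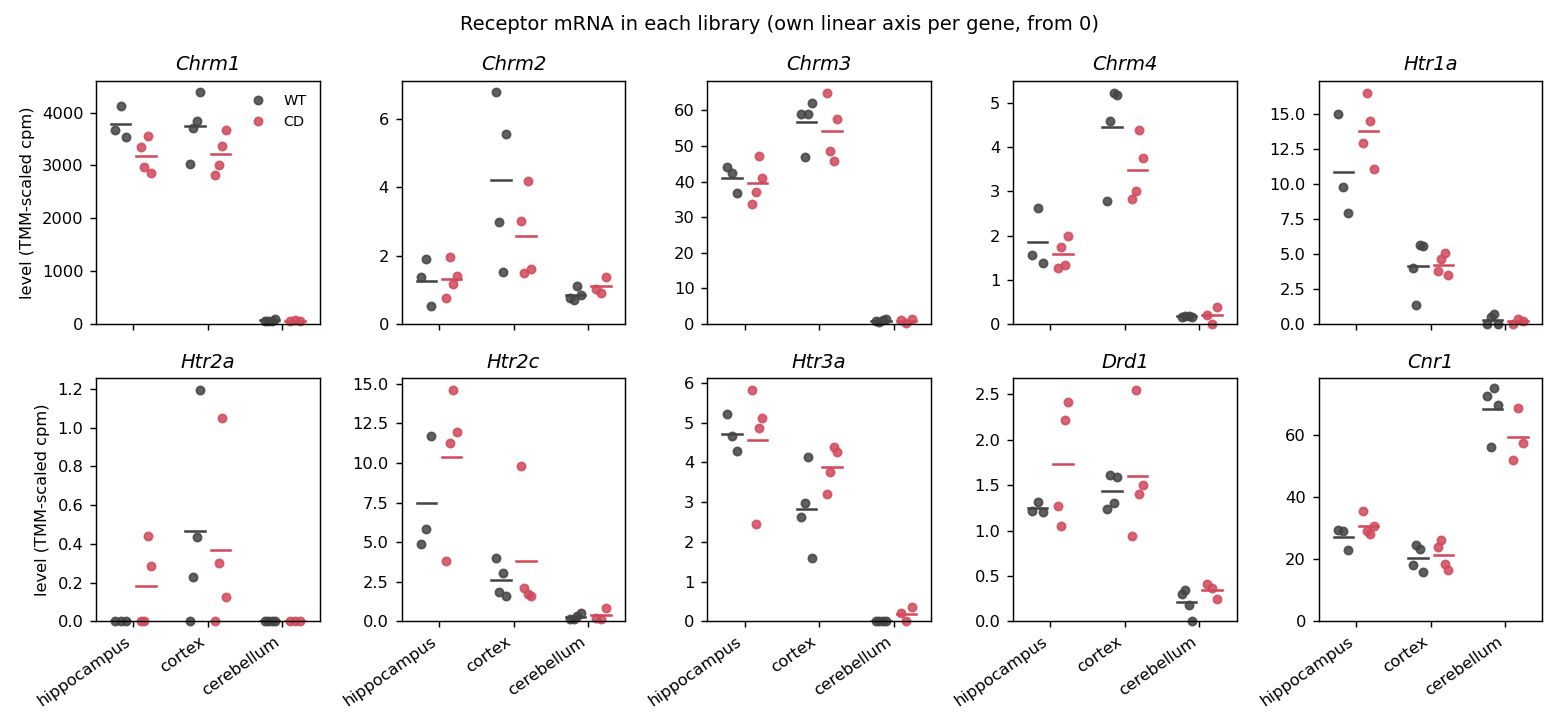
Level of each receptor mRNA in every library (TMM-scaled cpm, linear axis from 0, own axis per gene) by region, for WT (grey) and CD (red) mice; horizontal bars are group means. Cnr1 is highest in the cerebellum, the other 9 genes have their lowest mean there, and points of the 2 genotypes overlap in every region.

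Of the 10 receptors, 7 passed the study's filter of at least 5 cpm in at least 2 libraries, which was applied to cpm by unadjusted library totals, before TMM. Chrm1 and Cnr1 were above 5 cpm in all 22 libraries and Chrm3 in all 15 libraries of hippocampus and cortex. On the same scale, Htr1a passed through 7 hippocampi and 2 cortices and Htr2c through 5 hippocampi and 1 cortex. Htr3a passed through 3 hippocampi and Chrm2 through 2 cortices. These 4 genes and Chrm3 were thus kept because of the forebrain regions in which they are high. By those totals Chrm4, Htr2a and Drd1 did not reach 5 cpm in any library (at most 4.71, 1.09 and 2.40 cpm), and they are given as counts. Regions were compared by edgeR's quasi-likelihood test over all 22 libraries, and a gene was called at a false discovery rate (FDR, Benjamini-Hochberg over all 11137 genes tested) below 0.01 with a fold change above 2 or below 0.5. The 3 region comparisons share their libraries. In the cerebellum against the hippocampus, 5 of the 7 tested receptors were lower and Cnr1 was higher, where 13% of all genes tested were called lower and 9.76% higher. Against the cortex, 6 were lower and Cnr1 was higher, where 12.9% of all genes were called lower and 9.7% higher. Of the receptors called lower in the cerebellum, Chrm1 alone passed the filter there. The others were kept by their forebrain levels, so these counts of lower receptors follow in part from the filter. Between cortex and hippocampus, Chrm2 was higher in the cortex (4.38% of all genes were called in that direction) and Htr1a and Htr2c were lower (4.03%).

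Chrm1, the main Gq-coupled muscarinic receptor of forebrain pyramidal neurons, was at like levels in hippocampus and cortex. WT hippocampi had 3673, 4131 and 3544 cpm, and CD hippocampi had 3345, 2969, 3558 and 2866 cpm. WT cortices had 3036, 3714, 3842 and 4380.4 cpm, and CD cortices had 2828, 3011, 3367 and 3672 cpm. The 2 regions overlap over nearly their whole range. In the WT cerebella Chrm1 was at 63.5, 60.2, 62.6 and 92.4 cpm, and in the CD cerebella at 51.2, 74.3 and 66.0 cpm. Every cerebellum was thus far below every forebrain library. The log2 fold change of cortex over hippocampus was 0.00 (standard error, SE, 0.10; FDR = 0.999 by edgeR), a mean of 3481 ± 519 cpm (SD, n = 8) against 3441 ± 431 cpm (SD, n = 7). The cerebellum (67.2 ± 13.1 cpm, SD, n = 7) was 52.0-fold lower than either, with a log2 fold change of -5.70 against each (SE, 0.13; FDR = 2.06e-21 against the hippocampus and 1.16e-21 against the cortex). The cerebellar level rests on 250 to 545 counts in each library and is well above zero.

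Chrm3, the second Gq-coupled member, had the same order of regions with a modest step between cortex and hippocampus. WT hippocampi had 44.2, 42.3 and 36.8 cpm and CD hippocampi had 33.6, 37.1, 47.1 and 40.9 cpm. WT cortices had 59.1, 46.9, 58.8 and 62.1 cpm and CD cortices had 65.0, 48.5, 45.7 and 57.5 cpm. The ranges of the regions overlap, and the cortex was the higher in 6 of the 7 mice with both. The log2 fold change of cortex over hippocampus was 0.45 (SE, 0.11; FDR = 0.00217), which did not pass the fold threshold. In the cerebella only 1 to 11 counts were found per library (0.184 to 1.37 cpm, no overlap with the forebrain), a log2 fold change of -5.39 against the hippocampus (SE, 0.18; FDR = 2.83e-18) and of -5.84 against the cortex (SE, 0.18; FDR = 3.60e-19). A second transcript of Chrm3, NM_033269.4, with 820 counts in all against 4323, had the same order (8.48, 9.84 and 0.18 cpm on average, hippocampus first).

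Chrm2, the Gi-coupled receptor known as a muscarinic autoreceptor, had low counts everywhere and was highest in the cortex. Cortices had 44, 13, 7 and 14 counts (WT) and 16, 10, 24 and 13 counts (CD), or 1.5 to 6.80 cpm. Hippocampi had 8, 16 and 3 counts (WT) and 3, 17, 8 and 10 counts (CD), or 0.516 to 1.98 cpm, and cerebella 4 to 11 counts, or 0.698 to 1.37 cpm. The range in the cortex is wide and overlaps that of the hippocampus, with the cortex higher in 5 of 7 mice, whereas no cerebellum reached the lowest cortex. The log2 fold change was 1.25 for cortex over hippocampus (SE, 0.34; FDR = 0.00446), -1.72 for cerebellum over cortex (SE, 0.36; FDR = 0.000194) and -0.46 for cerebellum over hippocampus (SE, 0.40; FDR = 0.323). The first of these was not called with mouse as a replicate block (1.26, FDR = 0.0149), in WT mice alone (1.66, FDR = 0.0299), without WT hippocampus m244 (1.08, FDR = 0.0159) or without CD cortex m190 (1.09, FDR = 0.0151). Without WT cortex m162 or m244 the gene no longer passes the filter.

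Chrm4, the other Gi-coupled muscarinic receptor, stayed below the filter but separated cortex from hippocampus completely. Cortices had 18, 20, 24 and 13 counts (WT) and 15, 20, 25 and 30 counts (CD), or 2.78 to 5.23 cpm. Hippocampi had 9, 22 and 8 counts (WT) and 5, 15, 9 and 14 counts (CD), or 1.26 to 2.63 cpm, and the cortex was the higher in 7 of 7 mice. Pooled over libraries, the cortex was 2.06 times as high as the hippocampus (95% exact interval, 1.57 to 2.71, counting error only). The cerebella had 8 counts together, with at most 3 in a library, so that the hippocampus was 8.19 times as high (3.97 to 19.6) and the cortex 16.9 times (8.36 to 39.7). Fitted without a filter, Chrm4 was 1.16 higher in the cortex than in the hippocampus on the log2 scale (SE, 0.31; FDR = 0.00169 by edgeR). Striatum, which is rich in Chrm4 and Drd1, borders on the cortex. The summed level of 12 striatum markers was 605 to 942 cpm in the cortices, 488 to 661 cpm in the hippocampi and 388 to 549 cpm in the cerebella. Rasd2 alone made 455 to 781 cpm of it in the cortices, and the part of striatum in these values was not tested.

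Htr1a, the Gi-coupled serotonin receptor of hippocampal pyramidal cells, was highest in the hippocampus. WT hippocampi had 14.9, 9.79 and 7.90 cpm and CD hippocampi had 12.9, 16.5, 14.5 and 11.1 cpm. WT cortices had 4.02, 1.38, 5.66 and 5.57 cpm and CD cortices had 3.77, 4.64, 5.08 and 3.50 cpm. No cortex reached the lowest hippocampus, and the hippocampus was the higher in 7 of 7 mice. The log2 fold change of cortex over hippocampus was -1.56 (SE, 0.25; FDR = 1.79e-05), a 2.94-fold lower level, with an FDR of 0.0309 in WT mice alone (log2 fold change, -1.41). The cerebella had 0 to 4 counts per library and 11 together, against 583 in the hippocampi and 180 in the cortices. Pooled, the hippocampus was 42.4 times (95% exact interval, 23.5 to 85.3) and the cortex 13.4 times (7.30 to 27.3) as high as the cerebellum, and both differences were called (FDR = 7.03e-12 and 2.15e-08).

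Htr2c, a Gq-coupled receptor whose mRNA is very abundant in the choroid plexus, the secretory tissue that makes cerebrospinal fluid, was higher in the 4 hippocampus libraries with more choroid plexus marker RNA than in the other 3. WT hippocampi m162, m240 and m244 had 4.87, 5.85 and 11.7 cpm (28, 49 and 68 counts), and CD hippocampi m118, m138, m190 and m242 had 3.79, 11.3, 14.6 and 11.9 cpm (15, 97, 99 and 84 counts). These 7 libraries fall into a lower set of 3 (3.79 to 5.85 cpm) and a higher set of 4 (11.3 to 14.6 cpm). The lower set is WT m162, WT m240 and the library labelled CD m118, whose Tulp4 check was at the level of WT. The summed level of 13 choroid plexus markers, among them Ttr, the thyroid hormone carrier of that tissue, and without Htr2c, was 159 to 314 cpm in the lower set and 591 to 8667 cpm in the higher set, and Ttr alone was 120 to 278 cpm and 539 to 8144 cpm. Within the higher set, Htr2c was 11.9, 11.3, 14.6 and 11.7 cpm in order of rising sum, and 4 libraries are too few to describe a relation. All 13 markers had counts in every group of libraries. In the cortices the sum was 49.4 to 129 cpm and in the cerebella 56.0 to 132 cpm.

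**Figure D2:**
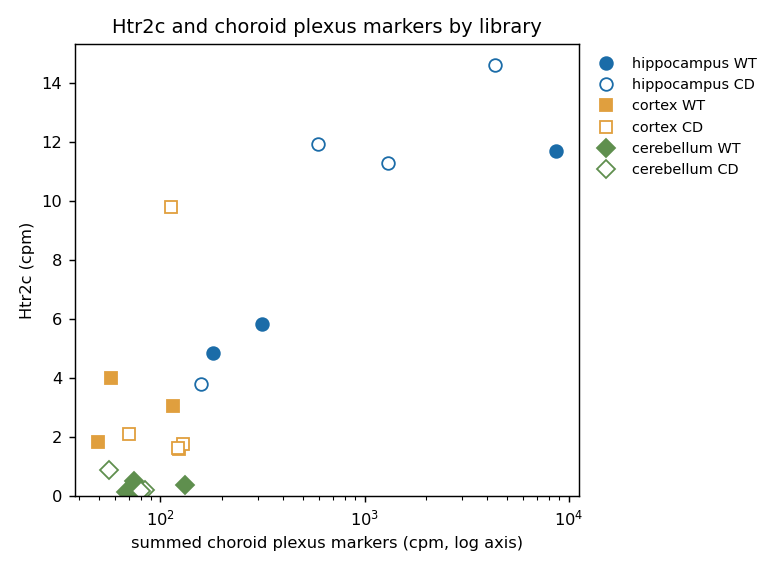
Htr2c (cpm, linear axis from 0) against the summed level of 13 choroid plexus markers (cpm, log axis) in the 22 libraries, by region and genotype. The 4 hippocampi with 591 cpm or more of the markers have 11.3 to 14.6 cpm of Htr2c and the other 3 have 3.79 to 5.85 cpm; 1 CD cortex, at 9.79 cpm, has a marker sum within that of the other cortices.

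WT cortices had 4.02, 1.84, 3.05 and 1.59 cpm of Htr2c, and CD cortices m118, m138, m190 and m242 had 9.79, 2.10, 1.75 and 1.62 cpm. The cortex of mouse m118 (52 counts) stood above all others (at most 26 counts), and its choroid plexus sum, 112 cpm, was within theirs. Of 7 mice with both regions, Htr2c was higher in the cortex than in the hippocampus only in the libraries labelled m118, of which the hippocampus is the one with the WT-level Tulp4 check. Over all libraries, the log2 fold change of cortex over hippocampus was -1.47 (SE, 0.36; FDR = 0.00199), and without that cortex it was -1.97 (FDR = 1.15e-05). With the 3 hippocampi of low choroid plexus sum alone, a choice made after the data were examined, it was -0.50 (SE, 0.51; FDR = 0.532) and was not called. Those are also the 3 hippocampi with the least Htr2c, so this fit cannot tell a part of choroid plexus from the choice of libraries. The call was also lost with mouse as a replicate block (-1.42, FDR = 0.0123), in WT mice alone (-1.41, FDR = 0.0157), in CD mice alone (-1.54, FDR = 0.0311) and without WT hippocampus m244 (-1.24, FDR = 0.0118). The part of choroid plexus in the hippocampal level was not tested. The cerebella had 1 to 7 counts of Htr2c, a log2 fold change of -4.48 against the hippocampus (SE, 0.50; FDR = 2.89e-08), which was -3.51 (FDR = 0.000109) with the 3 low-choroid hippocampi, and of -3.01 against the cortex (SE, 0.55; FDR = 4.37e-05). No cerebellum reached the lowest forebrain library.

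Htr3a, a subunit of the serotonin-gated channel known from a class of cortical and hippocampal interneurons, differed little between the forebrain regions. Hippocampi had 30, 39 and 25 counts (WT) and 23, 21, 33 and 36 counts (CD), or 2.44 to 5.82 cpm, and cortices had 17, 13, 19 and 4 counts (WT) and 17, 25, 25 and 34 counts (CD), or 1.59 to 4.38 cpm. The ranges overlap, although the hippocampus was the higher in 6 of 7 mice, and the log2 fold change of cortex over hippocampus was -0.44 (SE, 0.24; FDR = 0.164). The 4 WT cerebella had 0 counts, which allows up to 0.140 cpm over the group, and the 3 CD cerebella had 1, 0 and 3. Pooled, the hippocampus was 41.4 times (95% exact interval, 15.9 to 153) and the cortex 31.5 times (12 to 117) as high as the cerebellum, and both differences were called (FDR = 2.09e-10 and 1.41e-09). A list of 13 GABA interneuron genes had sums of 7071 to 9521 cpm in the hippocampi, 9233 to 11980 cpm in the cortices and 3805 to 4393 cpm in the cerebella. In the cerebella, Pvalb (1310 to 1627 cpm) and Calb2 made much of the sum, whereas Crh (at 0 in the CD cerebella), Vip and Tac2 were at most 3.56 cpm. The forebrain sums held mostly Sst, Npy and Cck, which were lower in the cerebella (Sst, 96.7 to 194 cpm). Slc32a1 (204 to 257 cpm) and Reln (64.3 to 84.3 cpm) were instead higher in every cerebellum than in any forebrain library. Gad2 overlapped between the regions. The list is thus mixed, and its sum does not measure the number of interneurons.

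Htr2a, the Gq-coupled receptor of cortical layer V pyramidal cells, was at the edge of detection. It had 20 counts in the 22 libraries: 15 in the cortices (0, 1, 2 and 3 in WT, 0, 2, 6 and 1 in CD), 5 in the hippocampi (3 and 2 in 2 CD libraries and 0 in the other 5) and 0 in the cerebella, which allows up to 0.0786 cpm there. Pooled, the cortex was 3.07 times as high as the hippocampus, with an exact interval of 1.06 to 10.8, and no fold is given against the cerebellum. A 3′ count depends on the annotated 3′ end, and whether the transcript used, NM_172812.2, covers the one made in these regions was not tested.

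Drd1, which raises cyclic AMP and marks the direct pathway of the striatum, was low and even in the forebrain. Hippocampi had 7, 11 and 7 counts (WT) and 5, 9, 15 and 17 counts (CD), and cortices had 8, 7, 6 and 4 counts (WT) and 5, 17, 8 and 12 counts (CD). Pooled, the cortex was 0.965 times the hippocampus (95% exact interval, 0.680 to 1.37, counting error only). Fitted without a filter, the log2 fold change of cortex over hippocampus was 0.04 (SE, 0.40 by edgeR). A difference of the size of that SE could not be detected at this depth. The cerebella had 0 to 2 counts per library and 11 together. The hippocampus was 5.16 times (2.72 to 10.8) and the cortex 4.98 times (2.61 to 10.4) as high, and no cerebellum reached the lowest forebrain library.

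Cnr1, the presynaptic cannabinoid receptor, which cerebellar granule cells and forebrain interneurons make, was the 1 member highest in the cerebellum. WT cerebella had 72.9, 56.2, 75.4 and 69.7 cpm and CD cerebella had 52.2, 68.9 and 57.5 cpm. WT hippocampi had 29.6, 29.1 and 23.2 cpm and CD hippocampi had 35.7, 29.1, 28.3 and 30.7 cpm. WT cortices had 18.2, 24.6, 23.3 and 15.9 cpm and CD cortices had 23.9, 26.4, 18.6 and 16.7 cpm. Every cerebellum was above every forebrain library, while hippocampus and cortex overlap although the cortex was the lower in 7 of 7 mice. The log2 fold change was 1.14 for cerebellum over hippocampus (SE, 0.11; FDR = 3.38e-09), 1.60 for cerebellum over cortex (SE, 0.11; FDR = 4.02e-12) and -0.46 for cortex over hippocampus (SE, 0.12; FDR = 0.00244), the last without passing the fold threshold. The first lay just below a 2-fold difference in CD mice alone (0.96) and with the 3 low-choroid hippocampi (0.98), with FDRs of 7.55e-05 and 3.72e-05.

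**Figure D3:**
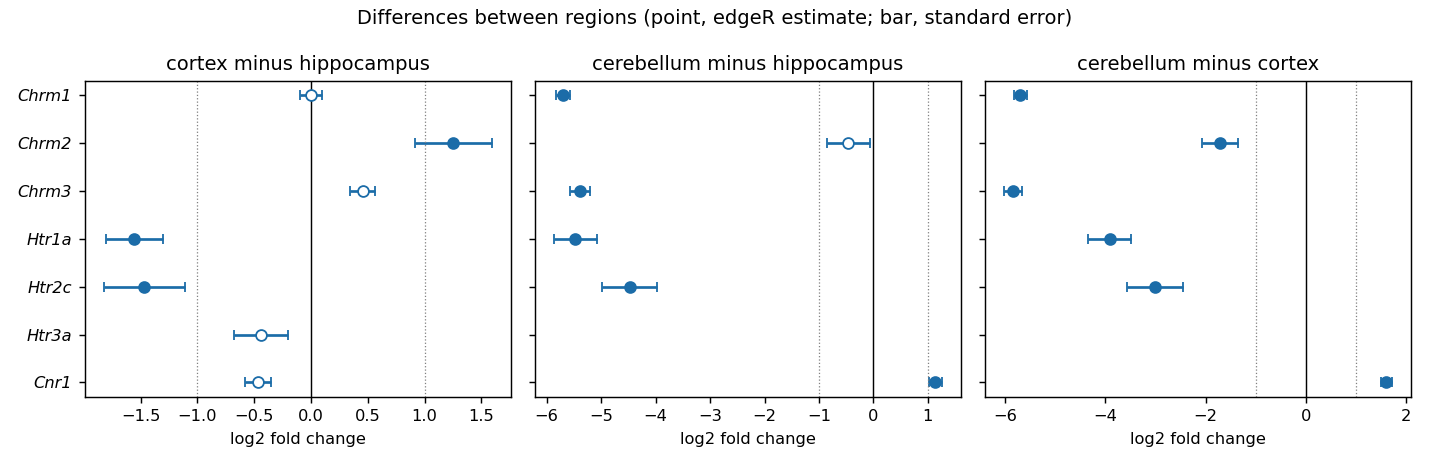
Log2 fold changes between regions for the 7 receptors that passed the filter (points, edgeR estimates; bars, standard errors; filled points, past FDR 0.01 and the 2-fold limits, which are dotted). Cerebellar values of Htr3a are left out because its cerebella hold at most 3 counts; among the values shown, Cnr1 alone lies to the right of zero in both cerebellar panels.

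Between genotypes, no receptor passed the thresholds in any region. The genes tested within a region by the same filter were 6 of the 10 for hippocampus, 5 for cortex and 2 for cerebellum, and 0 of them were called by edgeR's quasi-likelihood test, where 0% of the 9964, 9927 and 10141 genes tested were called. At an unadjusted p below 0.05, 420, 328 and 461 genes were found in hippocampus, cortex and cerebellum, Chrm1 in the hippocampus among them. DESeq2 called 2, 1 and 0 genes in these regions and none of the receptors. Over the 3 regions together (limma-voom with mouse as a random block), 0 of 7 receptors and 0 of 11137 genes were called. The same held for a genotype by region interaction (edgeR, FDR below 0.05). These tests had 399 and 435 genes at an unadjusted p below 0.05, with Chrm1 among the first and Htr3a among the second.

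Chrm1 had the smallest unadjusted p among the receptors. In WT hippocampi its mean was 3782 ± 309 cpm (SD, n = 3), that of CD hippocampi was 3185 ± 323 cpm (SD, n = 4), and the highest CD library (3558 cpm) reached the lowest WT one (3544 cpm). CD over WT gave -0.25 on the log2 scale (SE, 0.11; FDR = 0.997 by edgeR; exact permutation p = 0.114, two-sided), and -0.27 without the library labelled CD hippocampus m118. Cortices averaged 3743 ± 553 cpm (WT) and 3219 ± 376 cpm (CD; SD, n = 4 each), and the log2 difference was -0.22 (SE, 0.13; FDR = 0.9998; exact permutation p = 0.143). WT cerebella averaged 69.7 ± 15.2 cpm (SD, n = 4), CD cerebella averaged 63.8 ± 11.7 cpm (SD, n = 3), and the log2 difference was -0.12 (SE, 0.17; FDR = 0.981; exact permutation p = 0.743). All regions together gave -0.19 (SE, 0.083; FDR = 0.9997 by limma). Thus Chrm1 failed the correction in each region. Its sign was the same in the 3 regions, but these share their mice. Without WT cerebellum m244 the cerebellar sign turned.

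None of the remaining receptors was called between genotypes. In the hippocampus, the log2 fold changes of CD over WT were -0.04 for Chrm3, 0.17 for Cnr1, 0.35 for Htr1a (SE, 0.23), 0.53 for Htr2c (SE, 0.39) and -0.08 for Htr3a. Without the library labelled CD hippocampus m118 they were 0.03, 0.11, 0.38, 0.77 and -0.20, again with none called. Without WT hippocampus m162 the same genes had 0.01, 0.23, 0.64, 0.32 and -0.01, with none called, so single libraries move these values. In the cortex, the log2 fold changes were -0.75 for Chrm2 (SE, 0.46), where WT cortices range from 1.53 to 6.80 cpm and CD cortices from 1.5 to 4.20 cpm, -0.07 for Chrm3, 0.04 for Cnr1 and 0.05 for Htr1a. In the cerebellum, Cnr1 was -0.20 (SE, 0.13), with 68.5 ± 8.58 cpm in WT (SD, n = 4) and 59.5 ± 8.53 cpm in CD mice (SD, n = 3). The smallest interaction p among the receptors was that of Htr3a (FDR = 0.999 by edgeR), with means of 4.72 and 4.56 cpm in WT and CD hippocampi and of 2.84 and 3.89 cpm in WT and CD cortices. For the receptors below the filter, the pooled counts of WT and CD were 39 and 43 for Chrm4 in the hippocampus and 75 and 90 in the cortex, and 25 and 46 for Drd1 in the hippocampus and 25 and 42 in the cortex, at 20734241 and 27035667 counts of WT and CD hippocampi and 19242178 and 27484877 counts of WT and CD cortices.

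**Figure D4:**
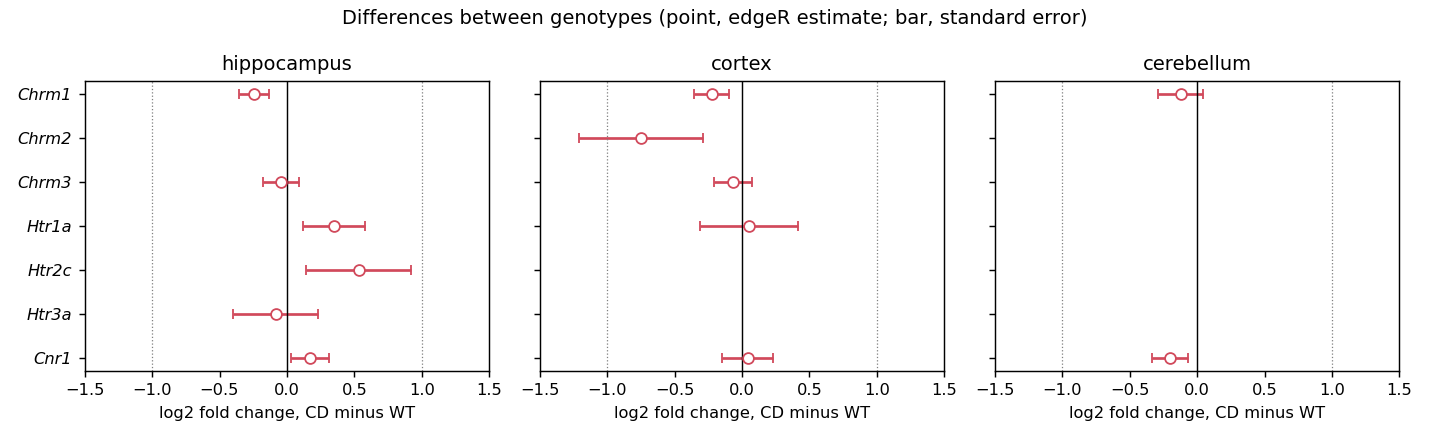
Log2 fold changes of CD over WT mice for the receptors tested within each region (open points, edgeR estimates; bars, standard errors; dotted lines, the 2-fold limits). No point is past the thresholds, and no estimate lies outside the range of -0.75 to 0.53.

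Of 15 further receptors of the 4 families, Htr5b, Htr7 and Drd5 passed the filter. Drd5 and Htr5b passed through the 7 hippocampi alone and Htr7 through 5 cortices and 1 hippocampus, so these genes were kept because of the regions in which they are high. Drd5, the second dopamine receptor that raises cyclic AMP, was at 23.7 ± 6.12 cpm in the hippocampus (SD, n = 7; 116 to 212 counts per library), at 1.51 ± 1.22 cpm in the cortex (SD, n = 8) and at 1 to 4 counts in each cerebellum. Its log2 fold change of cortex over hippocampus was -3.89 (SE, 0.28; FDR = 2.89e-11). The hippocampus held 60.5 times as much Drd5 as the cerebellum (95% exact interval, 35.9 to 111). Htr5b, a serotonin receptor, was at 9.01 ± 2.22 cpm in the hippocampus (SD, n = 7) and lower in the cortex (log2 fold change, -2.59; SE, 0.28; FDR = 5.75e-08), and Htr7 was -3.68 in cerebellum over cortex (SE, 0.32; FDR = 2.36e-10). Drd2, the Gi-coupled dopamine receptor, had 69 counts in the hippocampi, 15 in the cortices and 7 in the cerebella. Chrm5 had 19, 1 and 6 counts in the same order, Htr4 had 50, 11 and 2, and Htr1b had none in any library.

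Genes that make, carry or break down the transmitters, and those downstream of the receptors, were followed as 5 lists. Their counts are to be read beside the shares of all genes tested, which were 4.38% called higher and 4.03% lower in cortex against hippocampus, 9.76% and 13% in cerebellum against hippocampus, and 9.7% and 12.9% in cerebellum against cortex. Some listed genes passed the filter only through regions in which they are high, so the list counts follow in part from the filter. Of 6 tested genes of the acetylcholine list, 1 rose and 1 fell in the cortex against the hippocampus, 1 rose and 2 fell in the cerebellum against the hippocampus, and 0 rose and 2 fell against the cortex. The nicotinic receptor subunit Chrna4 was 1.06 higher in cortex than in hippocampus on the log2 scale (SE, 0.15; FDR = 2.23e-06) and Chrna2 had a log2 fold change of -1.68 there (SE, 0.29; FDR = 4.04e-05) and of -4.38 in cerebellum over hippocampus. Hippocampal Chrna2 ran from 32.4 to 231 cpm. Lypd6, a protein that modulates nicotinic receptors, was 1.02 higher in cerebellum than in hippocampus (SE, 0.13; FDR = 1.41e-07). Of 5 tested serotonin genes, 1, 2 and 2 fell in these comparisons and none rose. Of 8 tested dopamine genes, 1 rose and 2 fell, 2 rose and 3 fell, and 1 rose and 3 fell. Th, the rate-limiting enzyme of dopamine synthesis, was 4.01 higher in cerebellum than in hippocampus (SE, 0.34; FDR = 2.00e-10) at 21.9 ± 7.07 cpm (SD, n = 7). It was at most 2.55 cpm in the hippocampi and 3.49 cpm in the cortices, so it was kept by its cerebellar level.

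Of 10 tested endocannabinoid genes, none was called between cortex and hippocampus, and 3 fell in the cerebellum against each forebrain region (13% and 12.9% of all genes were called lower), while none rose. Faah and Ptgs2 fell in both comparisons, Napepld against the hippocampus and Mgll against the cortex. Faah and Mgll encode hydrolases that break down endocannabinoids. Ptgs2, cyclooxygenase, which also oxidises endocannabinoids, had 7 counts in all cerebella, so that the hippocampus was 49.2 times (95% exact interval, 23.7 to 123) and the cortex 44.8 times (21.5 to 112) as high. Ptgs2 was at most 0.41 cpm in the cerebella and was thus kept by its forebrain levels. The choice of Faah, Napepld and Mgll followed a look at their values. The medians of this list were -0.75 in cerebellum over hippocampus and -0.56 in cerebellum over cortex, beside 0.02 over all genes tested in both.

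Of 31 tested genes of G proteins, effectors and regulators, 3 rose and 2 fell in cortex against hippocampus, 4 rose and 10 fell in cerebellum against hippocampus (9.76% and 13% of all genes), and 5 rose and 9 fell in cerebellum against cortex (9.7% and 12.9%). Rgs4, which ends Gq and Gi signals, was 2.10 higher in the cortex than in the hippocampus on the log2 scale (SE, 0.12; FDR = 9.00e-13), with 1919 ± 268 cpm (SD, n = 8) against 447 ± 53.8 cpm (SD, n = 7). Plcb4, the phospholipase C of Purkinje cells, was 3.84 higher in cerebellum than in hippocampus (SE, 0.20; FDR = 7.23e-15). Rgs8, another regulator known from Purkinje cells, was 3.37 higher in cerebellum than in cortex (SE, 0.11; FDR = 5.44e-19). Rgs14, known from pyramidal cells of a hippocampal subfield, had 260 counts in the hippocampi, 79 in the cortices and 1 in the cerebella. It was lower in cortex than in hippocampus (log2 fold change, -1.61; SE, 0.24; FDR = 9.19e-06). Rgs14 was at most 2.82 cpm in the cortices and 0.15 cpm in the cerebella, so it was kept by its hippocampal level. None of the genes of the 5 lists was called between genotypes in any region.

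**Figure D5:**
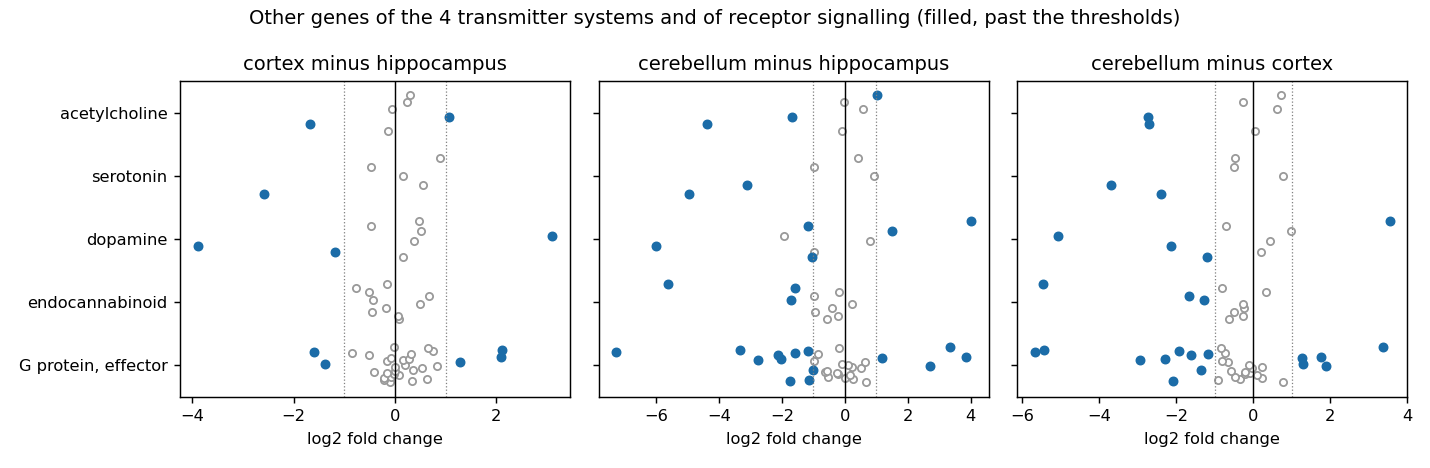
Log2 fold changes between regions for the other tested genes of the acetylcholine (6), serotonin (5), dopamine (8) and endocannabinoid (10) lists and of the G protein, effector and regulator list (31); each point is a gene, filled where past FDR 0.01 and the 2-fold limits (dotted). In the endocannabinoid row, filled points appear in the cerebellar panels, all to the left of zero.

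Over the 22 libraries, the genes most like each receptor were found by Pearson's r of log2 cpm, with Spearman's rho beside it. The points share 3 regions and their mice, so these values describe regional patterns. Chrm1 was most like Ctxn1 (r = 0.997, rho = 0.761), Enc1 and Chn1. Chrm3 was most like Kcnq5 (r = 0.991, rho = 0.881), a potassium channel subunit of the M-current that muscarinic receptors close, Cmip and Dlgap2. Htr1a was most like Necab2 (r = 0.970, rho = 0.944), Parvg and Islr2, and Htr3a was most like Homer2 (r = 0.978, rho = 0.911), Icam5 and Gabra4. Cnr1 was most like Pcsk6 (r = 0.963, rho = 0.897), Fam107b and Trappc5. Htr2c was most like Nell2 (r = 0.936, rho = 0.942), Riox2 and Pcdh19. Chrm2 had the lowest best match of the 7, Fcho1 (r = 0.800, rho = 0.816), followed by Npas4, an activity-dependent transcription factor, and Josd1. Among the receptors themselves, r was 0.985 for Chrm1 with Chrm3 and -0.910 for Chrm1 with Cnr1.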

How the data were processed

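RNA of hippocampus, cortex and cerebellum was prepared with RNeasy kits, and 30 ng of each sample went into CelSeq2 libraries with a 6-base molecular identifier, read on a NextSeq. The authors mapped reads to mm10 (STAR), counted RefSeq transcripts by the End Sequence Analysis Toolkit, and deposited those raw counts, which are not normalized. Tool versions, the RefSeq release, strand use and collapsing of identifiers are not given in the sources used here, so intervals and floors cover counting error only. Groups and mouse numbers came from the sample labels. The study reports fewer samples in every group and does not name the ones it used. All labelled libraries were used here, so the set differs from that of the study.

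Of 85964 transcripts, 39994 repeat the counts of an earlier one, and 16676 (18.56% of the counts) could not be matched to a gene by accession. The filter (at least 5 cpm by unadjusted library totals in at least 2 libraries), TMM scaling and thresholds (FDR below 0.01, fold change above 2 or below 0.5) follow the study, which used edgeR. Regions and the genotype by region interaction were tested with edgeR 4.0.16 (quasi-likelihood, 6 group means, 22 libraries), genotype within each region with edgeR, and genotype over the regions with limma 3.58.1 (voom, mouse as random block). Alternatives were DESeq2 1.42.0, other scaling, no filter, summed transcripts, a mouse block, single genotypes and leaving out each library. R 4.3.3 and Python 3.11.15 were used, and the tests were checked on simulated counts. Chrm1 was also compared by an exact two-sided permutation test of mean cpm, added after its values were seen. Pooled ratios carry 95% exact (Clopper-Pearson) intervals, and a count of 0 was read as up to 3 counts. The biological coefficient of variation was 15.5%.

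The labels take the regions from the same mice, which pairs the libraries. Deviations of same-mouse libraries from their group means correlated by 0.08 (hippocampus and cortex), 0.05 (hippocampus and cerebellum) and -0.0036 (cortex and cerebellum) on average. Blocked values are given where they change a call. That libraries of a group are separate mice is stated by the labels.

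The members and lists were chosen with earlier results of these data known. The genes named are the 10 receptors, the called gene with the largest rise and the largest fall of each list and region pair, the 3 genes most like each tested receptor by Pearson's r of log2 cpm (prior count of 2), and receptors of the same families. Not every gene under this rule is reported here. Protein sequences were not used here.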

Additional observations from a re-analysis of the deposited data

Results flagged for a closer look

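In groups of 4 libraries, 2 receptor values lay far from the other 3 by Dixon's criterion, of 38 groups looked at, where chance gives 1.9. Chrm1 in the cerebellum of WT mouse m244 was 92.4 cpm (545 counts) against 60.2 to 63.5 cpm (337 to 418 counts) in the other WT cerebella. Without that library, the log2 fold change of CD over WT in the cerebellum was 0.043 in place of -0.12. Htr2c in the cortex of CD mouse m118 was 9.79 cpm (52 counts) against 1.62 to 2.10 cpm (10 to 14 counts) in the other CD cortices. The summed choroid plexus markers of that library were 112 cpm, within the 49.4 to 129 cpm of the other cortices, and its summed striatum markers were 605 cpm, the lowest of the 8 cortices, of which Rasd2 made 455 cpm, while Penk on the same list was at 30.3 cpm against at most 24.3 cpm in the others. The cause was not tested.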

How the results depend on the processing

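The counts of receptors called in cerebellum against hippocampus and against cortex stayed within 1.5 times of 6 and 7 under every alternative run, and no receptor was called between genotypes under any of them. The count in cortex against hippocampus was 3 and rested on Chrm2, Htr1a and Htr2c. It was 5 at an FDR below 0.05 without a fold limit, 1 with mouse as replicate block, 0 in WT and 1 in CD libraries alone, 1 with the low-choroid hippocampi (chosen after the data were examined), and 1 to 3 when single libraries were left out, the lowest without WT hippocampus m244. The replicate block changed no other call. Signs turned only among differences that were not called. Chrm1 in cortex over hippocampus (0.00) was -0.014 in WT alone, -0.060 with the low-choroid hippocampi and -0.042 to 0.045 with 1 library left out. For CD over WT with 1 library left out, Chrm3 ran from -0.13 to 0.026 and Htr3a from -0.20 to 0.15 in the hippocampus, Chrm3 from -0.16 to 0.0032, Htr1a from -0.24 to 0.14 and Cnr1 from -0.076 to 0.15 in the cortex, and Chrm1 from -0.24 to 0.043 in the cerebellum. With the low-choroid hippocampi Htr2c was -0.50 and Htr3a 0.24 for CD over WT. There the CD arm is the 1 library labelled m118, with a WT-level Tulp4 check and assumed to vary like the others, so these values say nothing of genotype. Over the 3 regions with 1 library left out, Chrm2 ran from -0.21 to 0.10, Chrm3 from -0.35 to 0.073 and Cnr1 from -0.045 to 0.037, while without the block (edgeR) Htr1a was -0.0064 and Cnr1 0.0036, and Cnr1 was 0.0098 without a filter. Where an alternative has fewer samples, its own construction lowers the number called, and otherwise the cause was not tested. Counts of 0 to 22 per library outside the cortex, and of 0 to 44 in the cortex, limit Htr2a, Drd1, Chrm4 and Chrm2.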
